A study of Oryctolagus cuniculus with 12 samples.

Results

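The surface of the eye is covered by secreted proteins that hold microbes in check. Members of this group of genes were followed here in rabbit conjunctiva after filtration surgery: LCN2, LTF, LYZ, SLPI, CAMP, LPO, DMBT1 and CHI3L1. Members were the rows of the gene expression table that carry one of these symbols. Of the 8 genes listed, 6 had a row of that name among 20566 genes, and 5 passed the filter on low counts that left 14835 genes for testing. LYZ and SLPI had no row under their symbols. Of the others, LPO did not pass the filter, and CAMP passed it only through the libraries collected at 3 hours.

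The series holds RNA-seq of conjunctiva from female Japanese white rabbits. Trabeculectomy, which drains aqueous humor through a scleral opening into a bleb under the conjunctiva, was done in the right eye together with mitomycin C, an antiproliferative agent. Bleb conjunctiva was taken after 3 hours (TL3h), 3 days (TL3d) or 14 days (TL14d), and conjunctiva of left eyes served as control, with 3 libraries in each of the 4 groups. The labels give neither the age of the animals nor how control eyes match the operated eyes or time points. By the study's methods operated eyes also received a betamethasone injection, a glucocorticoid, and an ointment with erythromycin and colistin, so surgery and drugs cannot be told apart in these comparisons. Because the tissue is bulk, fewer cells of a type and less RNA per cell cannot be told apart either.

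Total counts ranged from 27111348 to 38591425 per library, and 3 counts corresponded to between 0.0712 and 0.124 CPM (counts scaled to library size after TMM normalization, which sets libraries against each other on the bulk of the genes). TMM factors were 0.768 to 0.783 in TL3h and 1.03 to 1.13 in the other groups. With the total counts alone as scale, the median over all genes tested of the log2 fold change at 3 hours was -0.47. The share of called genes that were higher at 3 hours then went from 51.0% to 25.0%. One TL14d library, replicate 1, had a mean correlation of 0.959 with the controls and of 0.883 with its own group. Markers of conjunctival epithelium were high in every library, with a summed level of 10112 to 22722 CPM over the 18 listed markers that have a row.

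The members act in different ways. Lipocalin 2 (LCN2) and lactotransferrin (LTF, lactoferrin) keep iron from bacteria, lysozyme cuts bacterial cell walls, and the cathelicidin CAMP is cut to a peptide that damages microbial membranes. Lactoperoxidase (LPO) turns thiocyanate into an oxidant, SLPI (antileukoproteinase) inhibits leukocyte proteases, DMBT1 is a scavenger receptor protein of mucosal fluids that clumps bacteria, and CHI3L1 is a chitinase-like protein without enzyme activity that is made in inflamed tissue. Lactoferrin and lysozyme are main proteins of tears, while LTF, LCN2, CAMP and lysozyme are also granule proteins of neutrophils, whose mRNA is made mostly while these cells mature.

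Levels per transcript length differed widely between members in the unoperated eye. On the FPKM scale, which divides fragments by transcript length and library size, DMBT1 was at 349 ± 101 in control (mean ± SD, n = 3). CHI3L1 was at 1.44 ± 1.53 FPKM, LCN2 at 1.25 ± 0.633 and LTF at 0.384 ± 0.195. CHI3L1 and LCN2 overlapped in their control libraries, while every LCN2 library, from 0.583 FPKM, lay above every LTF library, up to 0.542 FPKM. CAMP was at 0.0278 ± 0.0249 FPKM and LPO at 0. In TL3h the order was DMBT1 at 152 ± 77.0 FPKM, CHI3L1 at 62.0 ± 33.9, LTF at 15.7 ± 20.6, LCN2 at 1.79 ± 0.456 and CAMP at 0.411 ± 0.267. The lowest DMBT1 library lay below the highest CHI3L1 library there, at 75.2 against 99.4 FPKM, so these neighbours overlapped, as did CHI3L1 and LTF.

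**Figure D1:**
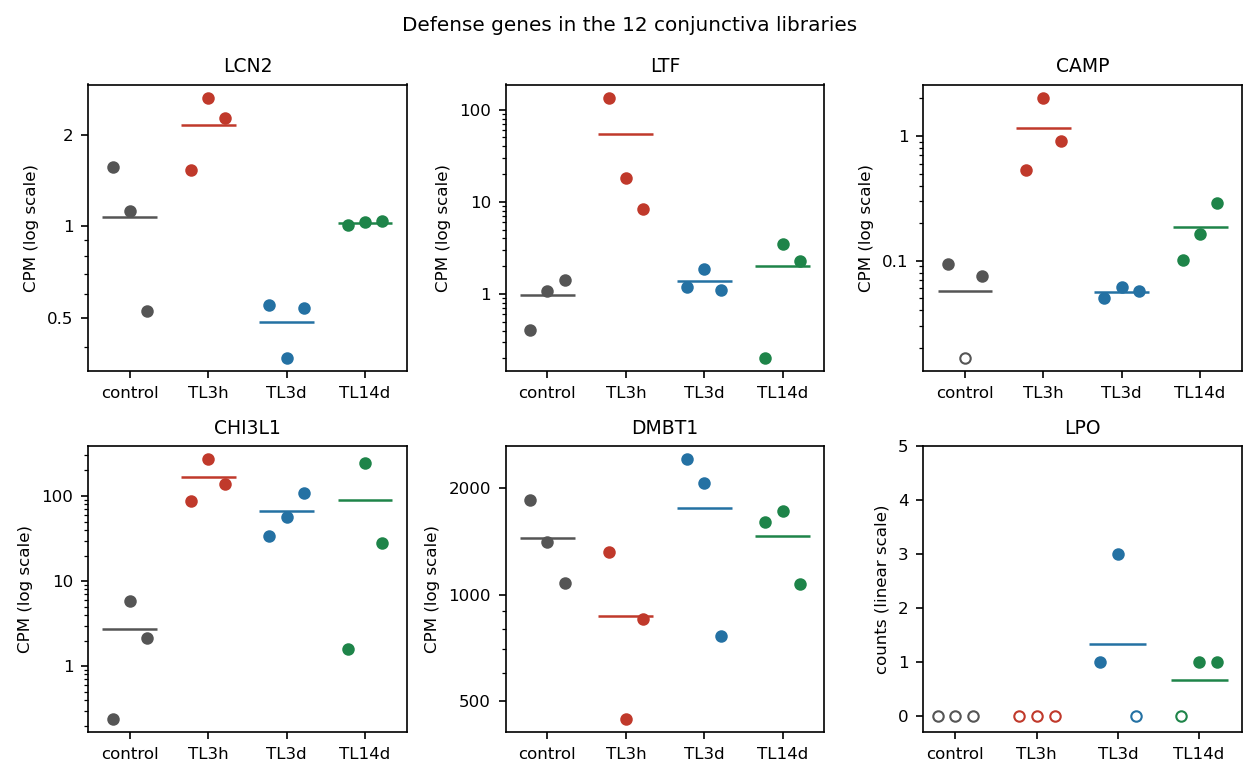
Level of the 6 members that have a row in each of the 12 libraries, as TMM-scaled CPM on a log scale and, for LPO, as counts on a linear scale. Points are libraries, lines are group means, and open points are libraries at 0 counts, set at the bottom of the CAMP panel. The 3 TL3h libraries lie above every other library for LTF and CAMP, CHI3L1 is above all controls at 3 hours and 3 days, and DMBT1 overlaps between groups.

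At 3 hours LTF, CAMP and CHI3L1 were higher than in control, and neither LCN2 nor DMBT1 passed the test. CAMP was among the tested genes only because of its TL3h counts, so it is left out of the count. Of the 4 other members tested, LTF and CHI3L1 passed, which is 2 of 4 beside 45.4% of all genes tested and 23.2% that were called higher. The same 2 of 4 did not overlap with control, beside 57.3% of all genes. At 3 days 0 of these 4 passed, beside 17.6% of all genes, although CHI3L1, 1 of 4, did not overlap with control, beside 45.5%. At 14 days 0 of 4 passed, and 0% of all genes did in edgeR's test. At 14 days, 1538 of all genes were under an unadjusted p of 0.05 in edgeR, DESeq2 called 370 genes, and 0 of the 4 members other than CAMP were apart from control, beside 11.1% of all genes. Over the 3 time points together, and again leaving CAMP out, LTF (adjusted p = 0.00250) and LCN2 (0.0110) passed edgeR's quasi-likelihood test and CHI3L1 (0.0607) and DMBT1 (0.318) did not, which is 2 of 4 beside 52.4% of all genes.

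LTF, which encodes the iron-binding protein of tears and neutrophil granules, lies on chromosome 9 of OryCun2.0 (14592660 to 14612842, minus strand). Its level was 0.403, 1.08 and 1.40 CPM in the controls and 136, 18.0 and 8.34 CPM in TL3h replicates 1 to 3. It was 1.2, 1.88 and 1.11 CPM in TL3d and 0.202, 3.48 and 2.28 CPM in TL14d. Every TL3h library thus lay above every other library, and the TL3d and TL14d libraries overlapped with control. The log2 fold change against control at 3 hours was 5.81 with a standard error of 1.26 (adjusted p = 0.00407, edgeR). Without TL3h replicate 1 it was 3.73 (adjusted p = 0.0123, edgeR). From 3 hours to 3 days LTF fell by 5.27 on the log2 scale (SE 1.23, adjusted p = 0.00755, edgeR), and by 3.20 without that library. Of its 2 transcript models, XM_008260521.2 had most LTF counts in each library, with 3491 in TL3h replicate 1 beside 44.1 of XM_017343768.1. In TL14d replicate 3 the counts were close, at 38.8 and 31.2.

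TL3h replicate 1 also stood apart in some, but not all, of the other secretion genes that were looked up after its LTF value was seen. PIP, a secreted protein of lacrimal and salivary glands, was at 58.8 CPM there and at 0 to 1.47 CPM in the other libraries. ZG16B, a secreted lectin of the same glands, was at 34.4 CPM there and at 0 to 0.124 CPM elsewhere. SCGB1A1, looked up with them, did not set this library apart. It was at 7.69 CPM there, beside 4.72 CPM in TL3h replicate 3, 4.65 CPM in control replicate 1 and 8.43 CPM in TL14d replicate 3. Of a list of 18 serous gland markers, 13 had a row, 8 were tested, and at 3 hours PIP was higher while AQP5 and PIGR were lower than in control. These 3 of 8 are 37.5%, beside 45.4% of all genes tested, so the list was not above the background. The summed level of that list was 4279 to 7152 CPM in control and 1463 to 3577 CPM in TL3h, CA6 had 0 counts in every library, and BPIFA1, BPIFB1 and ODAM had at most 1. In TL3h replicates 2 and 3, where LTF was at 18.0 and 8.34 CPM, PIP was at 0.207 and 0.732 CPM and ZG16B at 0.124 and 0.0366 CPM. The part of gland tissue in the LTF value of replicate 1 was not tested.

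CAMP, the cathelicidin gene, lies on the same chromosome (16003796 to 16031921, plus strand) and was counted by few reads. It had 4, 0 and 3 counts in control, 14, 49 and 25 in TL3h, 2 in each TL3d library, and 3, 6 and 9 in TL14d. These are 0 to 0.0949 CPM in control, 0.538, 2.03 and 0.915 CPM in TL3h, 0.050 to 0.0616 in TL3d and 0.101 to 0.293 in TL14d. The TL3h libraries were higher than all others, and the 3 TL14d libraries lay just above the highest control. The log2 fold change at 3 hours is given as a description, since these libraries also carried CAMP through the filter. It was 4.26 (SE 0.85, adjusted p = 0.00262, edgeR), 3.54 without TL3h replicate 2, and 1.89 on the FPKM scale with a pseudocount of 0.1. With no filter on low counts it was 4.24 (adjusted p = 0.00392, edgeR). CAMP fell from 3 hours to 3 days by 4.29 on the log2 scale (SE 0.86, adjusted p = 0.00350, edgeR), by 3.58 without TL3h replicate 2 and by 4.27 with no filter (adjusted p = 0.00525, edgeR). Over all alternatives this difference ran from -4.60 to -1.87. With 2 counts in each TL3d library, below 3 counts, its size is uncertain. Control and TL3d were both about as low as 3 counts, so no fold is given between them.

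The CAMP row joins 5 transcript models, and none of them passed the filter alone. The short model NM_001082305.1, at the end of the region (16030275 to 16031921), had 6.40, 23.5 and 21.5 counts in TL3h and at most 4 in any other library. The longer XM_017343636.1 had 6.42, 24.0 and 4.47 counts in TL3h and up to 8.77 in the other groups. How the authors' counting split reads between these overlapping models therefore decides the value of each, but not that of the gene.

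CHI3L1, the chitinase-like gene, lies on chromosome 16 (68595226 to 68601789, plus strand). Its level was 0.237, 5.88 and 2.16 CPM in control, and 88.7, 273 and 140.5 CPM in TL3h. It was 33.5, 56.2 and 109.6 CPM in TL3d, and 1.58, 243 and 27.7 CPM in TL14d. All TL3h and TL3d libraries lay above all controls, while TL14d replicate 1 lay between the controls. At 3 hours the log2 fold change was 5.92 (SE 1.65, adjusted p = 0.0146, edgeR), with 7.13 when control replicate 2 was left out and 5.33 without TL3h replicate 2. At 3 days it was 4.59 (SE 1.56) and missed the threshold (adjusted p = 0.0656, edgeR). It was 5.80 without control replicate 2 (adjusted p = 0.104) and 4.03 without TL3d replicate 3 (adjusted p = 0.111, both edgeR). CHI3L1 passed at 3 days with DESeq2 (adjusted p = 0.00182), with limma on FPKM (0.0455), and in edgeR with only the libraries compared (0.0386), with the replicate block (0.0242), without TL14d replicate 1 (0.0215) and without TL14d replicate 2 (0.0339). At 14 days the log2 fold change was 5.04 (SE 1.59, adjusted p = 0.370, edgeR), 5.62 without TL14d replicate 1 (adjusted p = 0.0417) and 2.41 without TL14d replicate 2, the library at 243 CPM (adjusted p = 0.978, both edgeR). With DESeq2 CHI3L1 passed at 14 days (adjusted p = 0.00479). Between 3 hours and 3 days the log2 difference was -1.33 (SE 1.35, adjusted p = 0.464, edgeR).

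CHIT1, a true chitinase of macrophages, is the neighbour of CHI3L1 on this chromosome, and 50% of the CHI3L1 values were fractions of a read, as for reads shared with another gene. CHIT1 had 0.237, 0.350 and 2.93 CPM in control, 25.8, 211 and 58.4 in TL3h, 20.3, 10.96 and 8.31 in TL3d, and 0.303, 64.3 and 5.53 in TL14d. In both genes replicate 2 was the highest library of TL3h and of TL14d. In TL3d the order differed, with CHI3L1 highest in replicate 3 and CHIT1 highest in replicate 1.

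LCN2, the siderophore-binding lipocalin, lies on sequence not placed on a chromosome and was a low gene throughout. It was at 1.57, 1.13 and 0.527 CPM in control, 1.54, 2.66 and 2.27 in TL3h, 0.550, 0.370 and 0.541 in TL3d, and 1.01, 1.03 and 1.04 in TL14d. TL3h overlapped with control in 1 library of each group, and TL3d overlapped in its upper 2 libraries with the lowest control. The log2 fold change was 1.0 at 3 hours (SE 0.41, adjusted p = 0.0683, edgeR), and 1.37 with an adjusted p of 0.0396 without control replicate 1. With total counts as the only scale the value at 3 hours was 0.48, close to the shift between these scalings. It was -1.13 at 3 days (SE 0.42, adjusted p = 0.0816, edgeR) and -0.06 at 14 days (SE 0.41). At 3 days LCN2 passed with DESeq2 (adjusted p = 0.0435) and in edgeR without control replicate 3 (adjusted p = 0.0330).

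The called difference in LCN2 was between time points. Every TL3d library lay below every TL3h library, and LCN2 fell by 2.13 on the log2 scale (SE 0.42, adjusted p = 0.00331, edgeR). LTF and CAMP passed too. Without CAMP, for the reason given above, 2 of 4 members passed between 3 days and 3 hours, beside 37.3% of all genes tested and 19.0% called lower. Using the total counts alone, LCN2, LTF and CAMP were still lower with adjusted p of 0.0119 or less, while the share of higher genes among all calls went from 49.2% to 80.5%. Between 14 days and 3 days 0 of these 4 members passed in edgeR's test, beside 2.24% of all genes. LCN2 was higher there in all libraries, by 1.07 (SE 0.42, adjusted p = 0.171, edgeR).

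DMBT1, the mucosal scavenger receptor gene, lies on chromosome 18 (69391903 to 69429377, plus strand) and had the highest mean FPKM of the members in every group. It was at 1843, 1405 and 1079 CPM in control and 1321, 444 and 852 CPM in TL3h. It was at 2413, 2072 and 766 CPM in TL3d and 1606, 1726 and 1069 CPM in TL14d. The groups overlapped at each time. Its log2 fold changes against control were -0.73 (SE 0.47), 0.28 (SE 0.47) and 0.02 (SE 0.47) in time order, with an adjusted p of 0.240 at 3 hours (edgeR). The 95% interval at 3 hours ran from -1.65 to 0.20. From 3 hours to 3 days the difference was 1.0 (SE 0.47, adjusted p = 0.121, edgeR), with an adjusted p of 0.0343 on total counts alone, of 0.0331 without TL3d replicate 3 and of 0.0370 with limma on FPKM. All DMBT1 values were fractions, so reads shared with similar sequence take part in them.

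LPO lies on chromosome 19 (29990014 to 30006671, minus strand), next to the myeloperoxidase gene MPO. It had 0 counts in all control and TL3h libraries, 1, 3 and 0 counts in TL3d and 0, 1 and 1 in TL14d. A count of 0 allows up to 0.0712 to 0.124 CPM in these libraries, so no difference was detectable at this depth. MPO itself had at most 4 counts in any library.

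**Figure D2:**
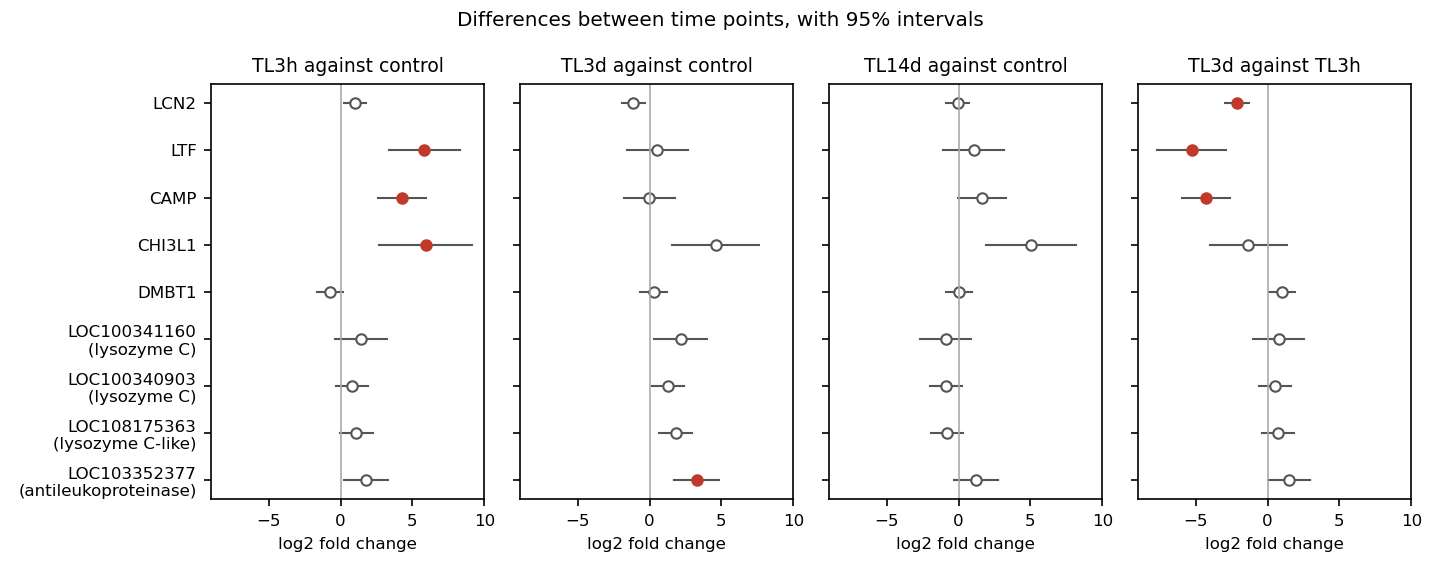
Log2 fold change of each tested member and of 4 rows described as lysozyme C or antileukoproteinase, with 95% intervals from the standard error, in 4 comparisons of 3 libraries against 3. Filled red points passed an adjusted p of 0.05 in edgeR's test. LTF, CAMP and CHI3L1 pass at 3 hours, and LCN2, LTF and CAMP pass below 0 between 3 days and 3 hours.

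Lysozyme and antileukoproteinase were read from rows that carry other names, which were chosen by their description. The 3 rows concerned are described as lysozyme C or lysozyme C-like: LOC100341160 on unplaced sequence, and LOC100340903 and LOC108175363 on chromosome 4 (48335492 to 48341894 and 48376629 to 48383910, both plus strand). The RefSeq gene table of another rabbit assembly, mOryCun1.1, gives the gene ID of LOC100341160 the symbol LYZ. All counts of these rows were fractions and their levels moved together over the 12 libraries (Pearson's r 0.973 to 0.988 between rows, with reads shared), so they are best read as 1 quantity.

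Summed over these rows, lysozyme C was at 179, 379 and 227 CPM in control and 478, 523 and 596 CPM in TL3h. It was at 365, 1043 and 1102 CPM in TL3d and 226, 35.6 and 175 CPM in TL14d. TL3h was above control in every library, TL3d overlapped with control in 1 library, and TL14d was below TL3d throughout. As 1 feature in the same fit, the sum had a log2 fold change of 1.02 at 3 hours (SE 0.61, adjusted p = 0.197, edgeR) and of 1.68 at 3 days (SE 0.62, adjusted p = 0.0819, edgeR). It was -0.85 at 14 days (SE 0.60, adjusted p = 0.645, edgeR), and -2.52 between 14 days and 3 days (SE 0.63, adjusted p = 0.0691, edgeR). Between 3 days and 3 hours the difference was 0.65 (SE 0.60, adjusted p = 0.419, edgeR). None of these passed.

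Tested alone, LOC100341160 had log2 fold changes of 1.40 (SE 0.92) at 3 hours and 2.17 (SE 0.94) at 3 days. LOC100340903 had 0.77 (SE 0.57) and 1.27 (SE 0.57), and LOC108175363 had 1.11 (SE 0.58) and 1.82 (SE 0.59). Over the 3 time points together LOC108175363 (adjusted p = 0.0160) and LOC100340903 (adjusted p = 0.0430) passed edgeR's test and LOC100341160 (adjusted p = 0.0630) did not. TL14d replicate 2 was the lowest library of each row, and in LOC100341160 it was at 0.924 CPM beside 33.0 and 34.5 CPM in the other TL14d libraries. Without it LOC108175363 passed at 3 hours, at 3 days and between 14 days and 3 days (adjusted p = 0.0442, 0.0174 and 0.0458, edgeR), as did LOC100341160 (adjusted p = 0.0338, 0.0172 and 0.0474, edgeR). Without TL14d replicate 1 LOC108175363 passed at 3 days (adjusted p = 0.0483, edgeR). With only the libraries compared, both passed at 3 hours (adjusted p = 0.0179 and 0.0267) and at 3 days (adjusted p = 0.0458 and 0.0473, edgeR). With DESeq2 the same pair passed at 3 days (adjusted p = 0.0107 and 0.0480), and between 14 days and 3 days DESeq2 called LOC100341160, LOC100340903 and LOC108175363 lower (adjusted p = 0.00760, 0.00406 and 0.000337), as did limma on FPKM for LOC108175363 (adjusted p = 0.0391).

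LOC103352377, on unplaced sequence, is described as antileukoproteinase, the protein name of SLPI. It had 9, 11 and 1 counts in control, 27, 6 and 14 in TL3h, 117, 34 and 40 in TL3d and 12, 11 and 16 in TL14d. On the CPM scale these were 0.0251 to 0.275 in control, 0.249 to 1.04 in TL3h, 1.05 to 2.92 in TL3d and 0.299 to 0.521 in TL14d. All TL3d and TL14d libraries lay above all controls, and TL3h overlapped with control. Antileukoproteinase was higher at 3 days by 3.29 on the log2 scale (SE 0.80, adjusted p = 0.0240, edgeR). This call was lost without control replicate 1 (3.47, adjusted p = 0.0759), control replicate 2 (3.79, adjusted p = 0.0610), TL3d replicate 1 (2.65, adjusted p = 0.0865) or TL3d replicate 2 (3.54, adjusted p = 0.0594, all edgeR). At 3 hours the value was 1.79 (SE 0.78, adjusted p = 0.0870, edgeR) and at 14 days 1.23 (SE 0.78).

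**Figure D3:**
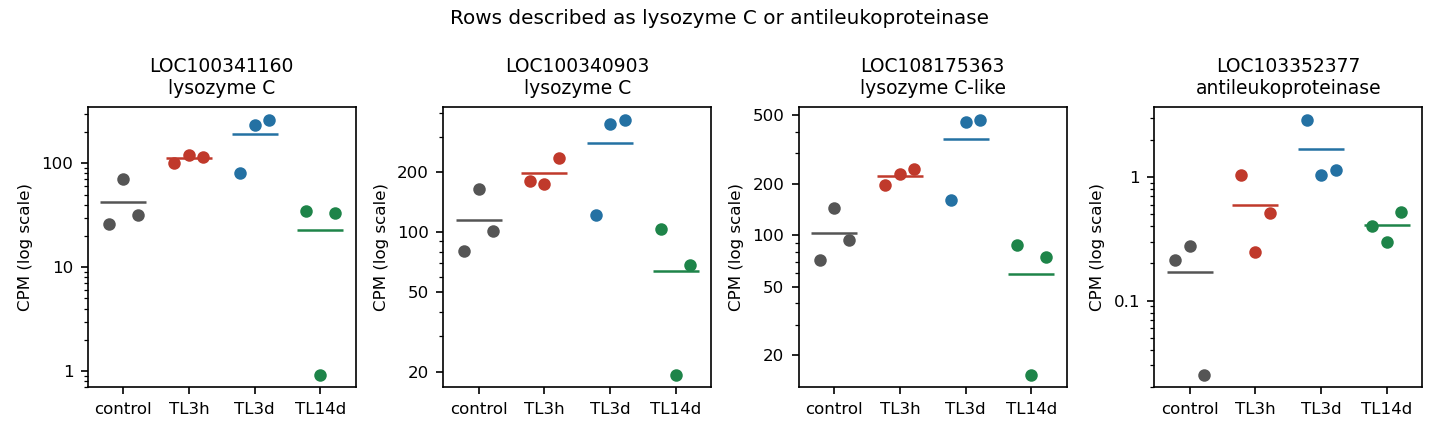
Level of the 3 lysozyme C rows and of the antileukoproteinase row in each library, as TMM-scaled CPM on a log scale, with points for libraries and lines for group means. The lysozyme rows move alike, with TL14d replicate 2 lowest, and antileukoproteinase has all TL3d libraries between 1.05 and 2.92 CPM, above all controls.

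Neutrophils, macrophages and fibroblasts carry several of these proteins, so their markers were set beside the members. Of 23 neutrophil markers that are no members, 12 had a row and 11 were tested, and 10 of 11 were higher at 3 hours with a median log2 fold change of 5.57, beside 23.2% of all genes called higher. At 3 days 3 of 11 passed, which is 27.3% beside 17.6% of all genes, and 0 passed at 14 days in edgeR's test. Without ALPL, which was at 259 to 340 CPM already in control, the 11 others summed to 8.85 to 119 CPM in control, 1371 to 3604 in TL3h, 216 to 1002 in TL3d and 12.4 to 157 in TL14d. CSF3R, the G-CSF receptor, was at 1.09, 2.05 and 18.9 CPM in control, 701, 607 and 228 CPM in TL3h, 156, 82.3 and 39.6 CPM in TL3d, and 1.01, 6.63 and 16.8 CPM in TL14d. Of the granule genes, MPO stayed at 0 to 4 counts.

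The members followed these markers in part. In TL3h, CAMP and CHI3L1 were highest in replicate 2, as were S100A8 (943 CPM, beside 424 and 362) and S100A9 (429 CPM, beside 193 and 148). LTF was highest in replicate 1, where CSF3R was highest too. In TL3d CSF3R was above every control, but S100A8 in TL3d replicate 3, at 20.3 CPM, was below the highest control, at 25.8 CPM. The 12 tested macrophage markers summed to 140 to 981 CPM in control, 980 to 1654 in TL3h, 1726 to 2675 in TL3d and 192 to 646 in TL14d. All TL3d sums of these markers lay above all TL3h sums, while lysozyme C in TL3d replicate 1, at 365 CPM, lay below every TL3h library. Within TL3d both were lowest in replicate 1 and highest in replicate 3, while in the other groups the order of their replicates differed. Fibroblast markers, 10 genes of connective tissue without CHI3L1, summed to 12547 to 77791 CPM in control, 106318 to 127851 in TL3h, 1494 to 65528 in TL3d and 11232 to 57736 in TL14d. None of these 10 passed at 3 hours, when their median log2 fold change was 1.30, and 3 of 10 were lower between 3 days and 3 hours, beside 19.0% of all genes. CHI3L1 is itself known from macrophages and fibroblasts. The part of infiltrating cells or of connective tissue in the members' changes was not tested.

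**Figure D4:**
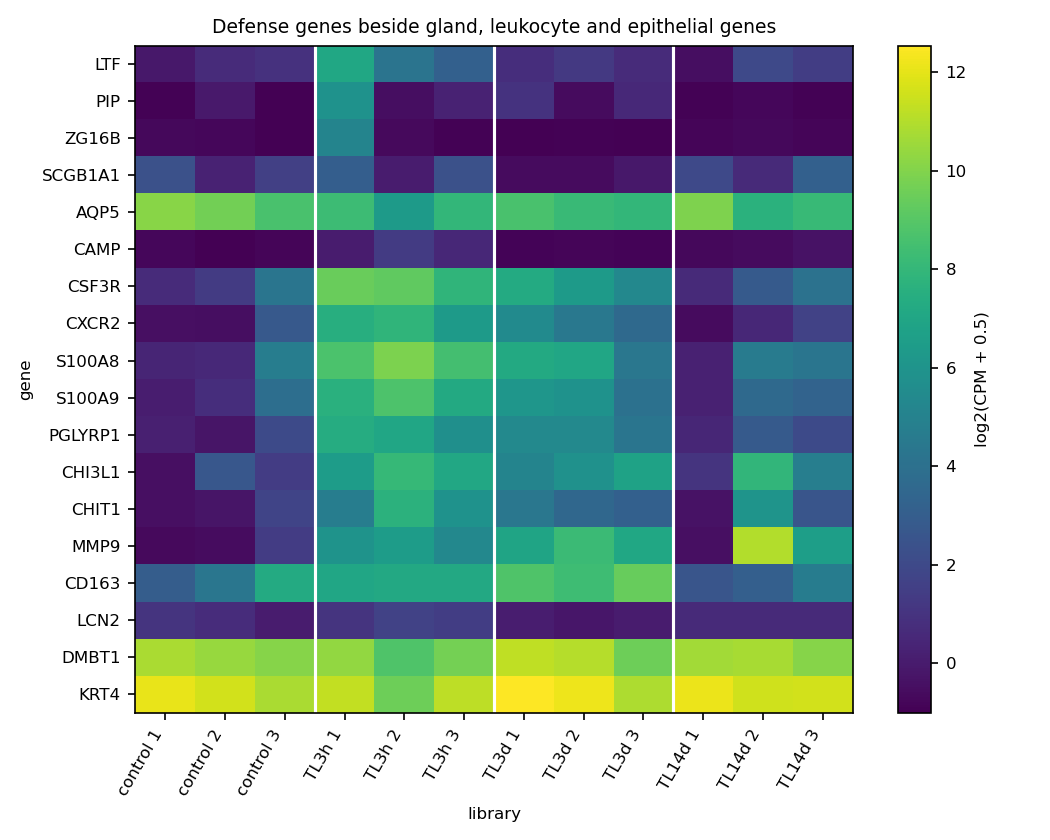
Heat map of log2(CPM + 0.5) for members and for gland, leukocyte and epithelial genes (rows) in the 12 libraries (columns), with white lines between groups. TL3h replicate 1 is the one library with PIP and ZG16B at 58.8 and 34.4 CPM, the neutrophil genes CSF3R, CXCR2, S100A8 and S100A9 are high in all TL3h libraries, and MMP9 and CHI3L1 are high in TL14d replicate 2.

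A wider list of host defense genes was read in the same way. Of a list of 74, 50 had a row and 27 were tested, and 14 of 27 passed at 3 hours (12 higher, 2 lower, median log2 fold change 0.95), beside 45.4% of all genes. The number was 7 without control replicate 2. The 14 include PGLYRP2, BPI and CCL20, of which no library of the lower group reached the filter's 0.297 CPM. PTX3, a soluble pattern recognition protein, went from 2.71 ± 2.92 CPM in control to 1053 ± 139 CPM (mean ± SD, n = 3; log2 fold change 8.60, SE 0.95, adjusted p = 0.000112, edgeR). PGLYRP1, a peptidoglycan-binding protein of neutrophil granules, went from 1.56 ± 1.85 to 117 ± 57.9 CPM (6.23, SE 1.06), CHIT1 from 1.17 ± 1.53 to 98.4 ± 98.9 CPM (6.39, SE 1.80), and PIP rose through a single library as given above. The lower genes were CCL20, a chemokine with antimicrobial activity, whose TL3h mean of 0.0783 CPM is below 3 counts, so that no fold is given, and PIGR, the receptor that carries IgA to the surface (-1.26, SE 0.39), and these were named after their values were seen.

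At 3 days 7 of these 27 genes were higher and 0 lower, beside 17.6% of all genes called, with 1 gene left when control replicate 2 was left out. PGLYRP1 was at 33.6 ± 12.6 CPM (log2 fold change 4.43, SE 0.98), S100A12, a calgranulin, at 211 ± 156 CPM (5.22, SE 1.59) and the collectin SFTPD at 21.3 ± 14.4 CPM (4.64, SE 1.02). BPI, which binds bacterial endotoxin, was at 1.22, 1.29 and 0.911 CPM in TL3d and at 0, 0 and 0.0502 CPM in control. No control library of BPI reached the filter's 0.297 CPM, so it was tested only through the operated libraries, and with no filter its adjusted p at 3 days was 0.0316 (edgeR). At 14 days 0 of 27 passed in edgeR's test, and 1 did without TL14d replicate 1.

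Of 30 rows described as defensins, small cationic peptides, 22 had 0 counts in every library and 3 had more than 10 counts in some library. These 3 were named after their values were seen. DEFB1, the constitutive epithelial defensin, was at 7.0, 6.0 and 4.54 CPM in control and 29.6, 11.9 and 15.7 CPM in TL3h, with a log2 fold change of 1.71 (SE 0.52, adjusted p = 0.0215, edgeR). The beta-defensin 103-like row LOC108175984 had 1, 0 and 0 counts in control, 16, 23 and 24 in TL3h, 108, 243 and 11 in TL3d and 0, 13 and 0 in TL14d, and it too was tested only through operated libraries. With no filter on low counts LOC108175984 had an adjusted p of 0.0194 at 3 hours and 0.0209 at 3 days (both edgeR). The defensin NP-4 row LOC100009135 had 302 counts in TL14d replicate 2, 22 in TL14d replicate 3 and at most 9 elsewhere.

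Genes that work with LPO and receptors of these proteins were also read as lists. Of 12 genes of the peroxidase system, which supply LPO with peroxide and thiocyanate, 10 had a row, 7 were tested and 1 passed at 3 hours, beside 45.4% of all genes. This was SLC26A9, an anion channel, at 0.284 ± 0.205 CPM in control and 27.0 ± 3.71 CPM in TL3h (log2 fold change 6.54, SE 1.22, adjusted p = 0.00177, edgeR). The peroxide-making oxidase genes DUOX1 (0.07, SE 0.42) and DUOX2 (-1.53, SE 0.61, adjusted p = 0.0645, edgeR) did not pass. The count was 3 without control replicate 3 and 2 with total counts alone as scale.

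Of 20 tested genes for receptors and binding partners, 7 passed at 3 hours (5 higher, 2 lower), 3 at 3 days and 0 at 14 days, beside 45.4%, 17.6% and 0% of all genes in edgeR's test. The count at 3 hours was 4 without control replicate 2. At 3 days it was 1 without control replicate 1 and 6 without TL14d replicate 1, and without the latter library it was 2 at 14 days. FPR2, a receptor of the cathelicidin peptide, rose from 0.886 ± 1.36 CPM to 190 ± 45.0 CPM at 3 hours (log2 fold change 7.74, SE 2.06), and FPR1 from 1.5 ± 2.03 to 85.0 ± 38.2 CPM (5.82, SE 1.62). MMP9, whose protein binds LCN2, rose from 0.817 ± 1.14 CPM to 62.5 ± 24.2 CPM at 3 hours (6.26, SE 2.18) and 186 ± 101 CPM at 3 days (7.83, SE 2.33). SFTPD, also in this list, was at 11.1 ± 7.72 CPM at 3 hours (3.69, SE 0.98), and GRN, a substrate that SLPI shields from cleavage, went from 171 ± 34.4 to 448 ± 37.2 CPM at 3 days (1.39, SE 0.21). The LCN2 receptor genes SLC22A17 (0.32, SE 0.63) and LRP2 (1.29, SE 0.60) did not pass at 3 hours.

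Cytokines and transcription factors that are known to induce these defense genes formed the last list. Of 25 tested, 18 passed at 3 hours (16 higher, 2 lower, median log2 fold change 1.60), 6 were higher at 3 days, and 0 passed at 14 days in edgeR's test. All genes tested had 45.4% called at 3 hours and 17.6% at 3 days, so the share at 3 days, 24%, was near the background. IL1A, IL6, IL36G and CEBPE, 4 of the 18 genes called at 3 hours, reached the filter's 0.297 CPM in no control library, as did 3 of the 6 at 3 days (IL1A, IL6 and IL36G). These 4 also passed at 3 hours with no filter. Without control replicate 1 the count at 3 days was 0, and without TL14d replicate 1 the count at 14 days was 7. IL6 rose from 0.117 ± 0.143 CPM to 383 ± 120 CPM at 3 hours (log2 fold change 11.65, SE 1.95) and 8.17 ± 4.23 CPM at 3 days (6.10, SE 1.67). IL1B went from 1.63 ± 2.06 to 391 ± 89.4 CPM at 3 hours (7.91, SE 2.09), and IL1A from 0.115 ± 0.0175 to 68.4 ± 51.4 CPM at 3 hours (9.17, SE 2.41) and 80.8 ± 77.3 CPM at 3 days (9.41, SE 2.43). IL36G was at 0 counts in all controls and at 8.92, 5.35 and 3.15 CPM in TL3h, at least 77.1-fold higher by group mean than 3 counts in a control library. OSM, a cytokine of the IL-6 family, was at 13.0 ± 6.47 CPM at 3 days (5.61, SE 1.46) and SPI1, a myeloid transcription factor, at 11.3 ± 1.07 CPM (3.08, SE 0.63).

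IL17A and IL22, whose products induce LCN2 and beta-defensins in epithelia, had levels of at most 0.0285 and 0.0415 CPM, which is below 3 counts in any library. IL17F, looked up with them, reached 0.115 and 0.110 CPM in TL3h replicates 1 and 3, the level of 3 counts. It was at 0.114 CPM in TL3d replicate 3 and at most 0.0415 CPM elsewhere. In the libraries where IL6 was at 252 to 487 CPM, LCN2 was at 1.54 to 2.66 CPM.

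The genes whose pattern was most like that of a member were named as a description, by Pearson's r of log2(CPM + 0.5) over the 12 libraries. They were sought among 13252 genes whose mean reached 1 CPM, or 13253 for CAMP. For LCN2 these were EIF4A2 (r = 0.945), TRA2A, RBM39, ZBTB11 and ZNF84 (0.912). For CHI3L1 they were SNAI1 (0.966), ITGA5, RRAD, PANX1 and CD83 (0.954). The other members were added after their values were seen. For DMBT1 they were CPT1B (0.959), GPA33, CECR5, KRT4 (0.937) and ORMDL2, for LTF SDE2 (0.944), PPP1R10, DDX5, NFYB and TMEM230 (0.931), and for CAMP APBB3 (0.960), ZNF324, ZNF250, KANSL2 and WIZ (0.947). LPO was too low for such a comparison. The libraries share their groups, so each r mixes the differences between time points with those between replicates. KRT4, a keratin of stratified mucosa, had its lowest level in TL3h replicate 2 (752 CPM), the library in which DMBT1 was lowest too.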

How the data were processed

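RNA of bleb conjunctiva was sequenced from polyadenylated, stranded libraries as paired reads. The authors mapped reads with STAR 2.6.0c to OryCun2.0 and deposited expected counts (23.4% of values were fractions) and FPKM per gene and transcript, with GeneData Profiler Genome. Fractions mean that reads shared between similar sequences were split. Groups were taken from the labels. Expected counts were rounded, genes were filtered with filterByExpr (minimum count 10, total 15), scaled by TMM and tested with edgeR 4.0.16's quasi-likelihood test on all 12 libraries in 1 fit (R 4.3.3), with Benjamini-Hochberg adjustment over 14835 genes and a threshold of 0.05. Standard errors are the log2 fold change over the square root of F. Transcript counts were fitted likewise. Alternatives were DESeq2 size factors, total counts alone, DESeq2 1.42.0, no filter, only the libraries compared, a replicate block, limma 3.58.1 on log2(FPKM + 0.1), and each library left out. The deposited FPKM served for levels between genes.

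Members, lists and tests were chosen with earlier results of these data known, so they are no independent support. Text names all members, from 4 lists the 4 called genes per comparison with control that had the largest change and at least 1 CPM in a group, and 5 genes of like pattern. Genes outside this rule are marked or given as context. By the study, operated libraries of a group are separate right eyes. For the controls the labels do not say which animals they came from, so p-values against them measure the spread between these libraries. The 95% intervals use the standard errors above, which include the spread between libraries. The limit of 3 counts covers counting error only. The script was tested on simulated counts. No sequences are printed, as none were used here.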

Additional observations from a re-analysis of the deposited data

Results flagged for a closer look

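Members differed between time points in the comparison of TL3d with TL3h, which is the test of the difference between their changes against the shared controls. The log2 difference was -5.27 for LTF, -4.29 for CAMP and -2.13 for LCN2 (adjusted p = 0.00755, 0.00350 and 0.00331, edgeR), each lower in 3 of 3 TL3d libraries. CAMP was tested only because of its TL3h counts, so its value is a description. With no filter on low counts the CAMP difference was -4.27, and over all alternatives it ran from -4.60 to -1.87, with TL3d below 3 counts per library. These 3 differences share the TL3h libraries, in which TL3h replicate 1 held most of the LTF counts. Without it the LTF difference was -3.20. No group had 4 or more libraries, so single libraries were not screened for standing apart by a rule.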

How the results depend on the processing

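With CAMP counted, the members past the threshold were 3 at 3 hours and 3 between 3 days and 3 hours in edgeR's test, and stayed at 3 or went to 4 in each alternative run. LCN2 was the fourth at 3 hours without control replicate 1, and DMBT1, in the other direction, between 3 days and 3 hours. Without CAMP the main fit gave 2 of 4 in each of these comparisons, beside 45.4% and 37.3% of all genes. LTF and CHI3L1 at 3 hours, and LTF and LCN2 between 3 days and 3 hours, passed in all 19 alternatives. At 3 days the count of 0 became 2 with DESeq2 (LCN2 and CHI3L1), and 1 with only the libraries compared, 1 with the replicate block and 1 with FPKM and limma, each of them CHI3L1. Leaving out 1 library gave 0 to 1. At 14 days the count of 0 became 1 with DESeq2 (CHI3L1) and was 0 to 1 with 1 library left out. The cause was not tested. CHI3L1 reversed between 14 days and 3 days with the replicate block (-1.07) and with FPKM (-1.37), and was -2.18 to 1.03 with 1 library left out.

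Values near 0 also changed sign. CAMP at 3 days was 0.0215 with FPKM and -0.58 to 0.53 with 1 library left out, at counts too low for a fold. LCN2 at 14 days was 0.0689 with FPKM and -0.40 to 0.31 with 1 library left out. With 1 library left out DMBT1 was -0.0232 to 0.64 at 3 days, -0.16 to 0.24 at 14 days and -0.61 to 0.0476 between 14 and 3 days, and LTF was -0.16 to 1.05 between 14 and 3 days. Summing the lysozyme C rows was chosen after seeing the data. Same-numbered libraries deviated together in 8 of 18 pairs (r over 0.1, range -0.16 to 0.53), and r between libraries of different number ran from -0.57 to 0.43. This does not decide whether libraries of the same number share something. The labels do not say how libraries match, so the numbers were not taken as pairs in the main fit. The replicate block gave 3 members at 3 hours and 0 at 14 days. Depth limits LPO and CAMP most.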
